A study of Danio rerio with 30 samples.

Results

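The dorsal retina of zebrafish embryos was compared at 56 and 32 hours post-fertilisation (hpf) in 9 of the 30 RNA sequencing libraries of the series. They were chosen by their labels: replicates 1 to 5 of the dorsal retina (DR) at 56 hpf and replicates 2 to 5 of the DR at 32 hpf. DR replicate 1 at 32 hpf was left out because reads fell in 11777 genes, against 17462 to 18163 in the other 4 libraries of its group. The study followed closure of the optic fissure, the ventral cleft of the developing eye, by dissecting the optic fissure region (OF) and the DR ahead of fusion at 32 hpf, while it ran at 48 hpf, and once it was over at 56 hpf. The DR does not fuse and served as the control region. Labels give neither strain, genotype, sex, light schedule nor any treatment for these groups, and not how many eyes went into a library. The series text calls the 5 replicates of a group biological. The 2 times lie 24 h apart, so the hour of the day should be alike.

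A retina grows from cycling progenitors held in that state in part by Notch signalling. As they leave the cell cycle they form ganglion cells first, then amacrine, horizontal and cone cells, and bipolar cells, rods and Müller glia later. In the zebrafish this wave begins in the ventral retina beside the optic stalk and reaches dorsal retina after it. Ganglion cells send axons to the brain, photoreceptors turn light into a signal with opsins and a G-protein cascade, and bipolar and amacrine cells pass that signal on.

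In the DR at 56 hpf, 3715 of the 15009 genes kept (24.8%) were higher than at 32 hpf and 1702 (11.3%) were lower at an adjusted p under 0.05, 5417 in all (36.1%). A gene was kept with a value of at least 10 in at least 4 of the 9 libraries. A gene near 0 at 32 hpf could therefore be kept only through its 56 hpf values, so that counts over the members kept of a list describe those members and not the whole list. Values are normalised read counts, each the reads of a gene over the size factor of its library, and log2 fold changes are differences of mean log2(normalised count + 1), 56 over 32 hpf. Their median over all genes kept was 0.16, so that changes near that value are no more than the middle of all genes. It was 0.02 after TMM scaling and -0.19 after quantile scaling. The share of calls that were higher was 68.6%, 60.6% after TMM scaling and 48.9% after quantile scaling (2747 higher and 2869 lower). No gene was called in the opposite direction under any alternative. The 56 hpf libraries held 5904927 to 10813384 reads in genes and the 32 hpf libraries 8329642 to 11345612. The times were separated on the first principal component, with 64.3% of the variance against 7.66% on the second. Replicates 1 and 2 at 56 hpf stood apart from the other libraries. Their summed skeletal muscle genes came to 6910.4 and 13244 normalised counts, against 198 to 294 in replicates 3 to 5 and 70.5 to 121 at 32 hpf. In replicate 1, 25740 genes had reads, where the other 4 of its group had 18938 to 20240. Without both, 2969 genes were higher and 1455 lower, of which 2875 and 1283 were among the genes called with them. The dorsal genes tbx5a and bambia had at least 48.5 and 1333 normalised counts in every one of the 9 libraries, and the ventral gene vax1 at most 22.2. Other ventral genes were not that low in every library. ntn1a had 159.5 and 214 normalised counts in replicates 1 and 2 at 56 hpf, and pax2a lay above tbx5a in replicate 5 at 32 hpf. All ventral eye genes listed are given below. Counts without replicates 1 and 2 at 56 hpf stand beside those of the gene groups below. Most members named in a group are those with its smallest adjusted p. That their libraries do not overlap between the times largely follows from that choice and is no separate evidence. In dissected tissue, fewer cells of a type and less RNA per cell cannot be told apart.

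**Figure D1:**
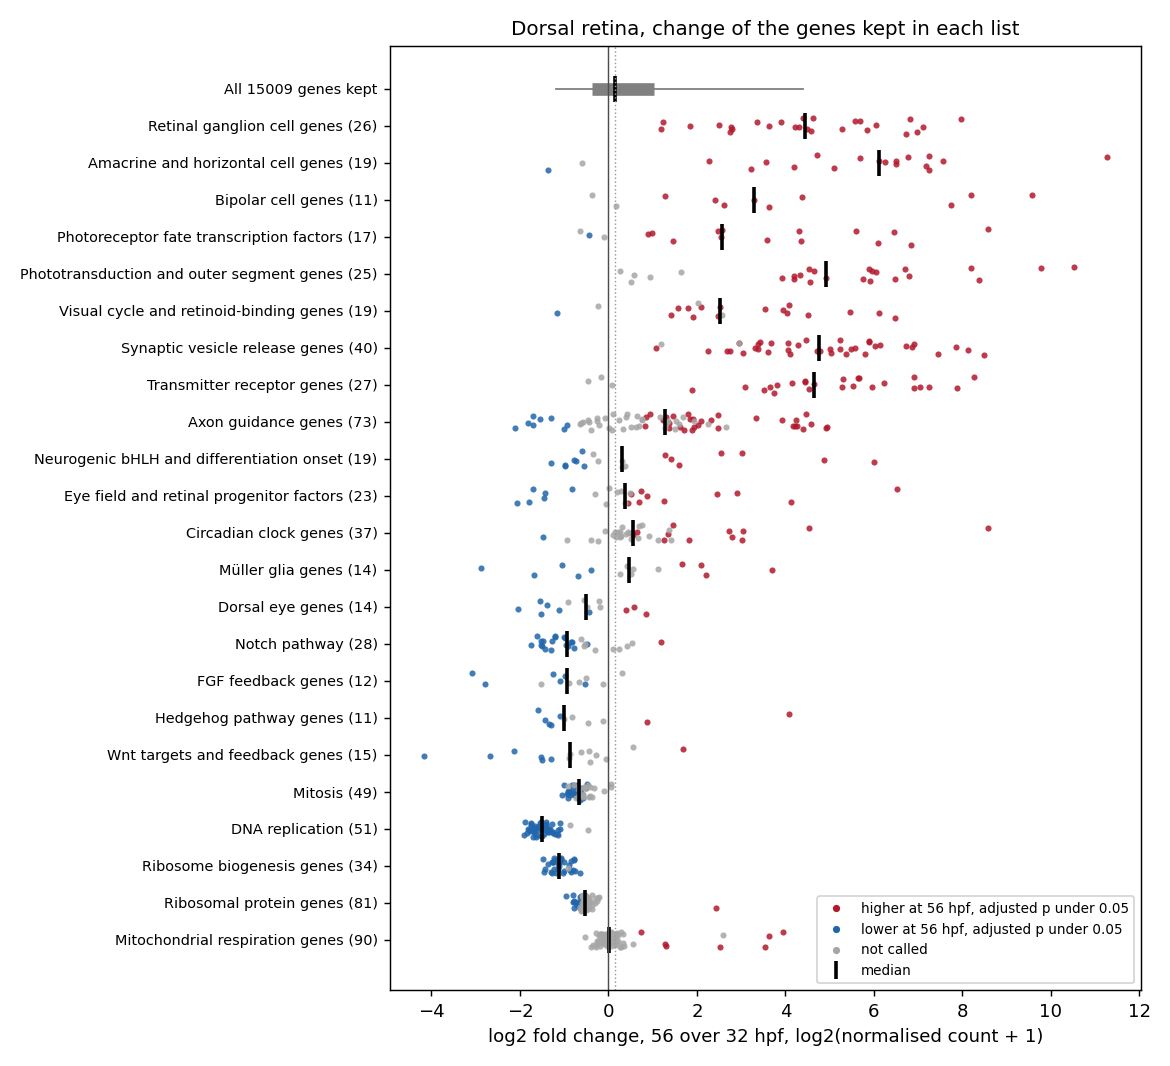
Log2 fold change, 56 over 32 hpf, of each gene kept (points) in 23 gene lists of the dorsal retina, with the list median (black bar), and for all 15009 genes kept the median, quartiles (thick bar) and 5th to 95th percentile (thin line). Ganglion cell genes lie to the right with a median of 4.44, and DNA replication genes to the left with a median of -1.49.

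Genes of retinal ganglion cells rose together. All 26 members kept of 31 were higher at 56 hpf, where 24.8% of all genes kept were, with a median log2 fold change of 4.44 against 0.16 over all genes. In 25 of them every 56 hpf library lay above every 32 hpf library, as in 21.1% of all genes kept. Without replicates 1 and 2 at 56 hpf, 25 were higher. isl2a (ENSDARG00000003971), a LIM-homeobox gene known in the mouse from ganglion cells with crossed projections, had 567, 592, 524, 511 and 420.3 normalised counts at 56 hpf, against 0, 8.19, 1.04 and 0 at 32 hpf (log2 fold change 7.97, SE 0.58, adjusted p = 5.7e-07). Its 56 hpf libraries lay close together, and at 32 hpf replicate 3 alone was above 2 normalised counts. The POU-domain genes pou4f3 (ENSDARG00000006206) and pou4f1 (ENSDARG00000005559), regulators of ganglion cell differentiation, lay apart between the times. pou4f3 had 283, 165, 164, 129 and 116 normalised counts at 56 hpf, against 0, 1.02, 0 and 0 at 32 hpf (log2 change 7.10, SE 0.50, adjusted p = 4.8e-07). pou4f1 had 280.2, 325, 246, 107 and 149 normalised counts at 56 hpf, against 0, 2.05, 1.04 and 0.801 at 32 hpf (log2 change 6.81, SE 0.51, adjusted p = 6.9e-07). The groups did not overlap for either gene. tbr1b (ENSDARG00000004712), a T-box gene of ganglion cell subtypes, had no read in the 4 libraries at 32 hpf and 169, 101, 82, 70.5 and 127 normalised counts at 56 hpf, at least 38.4-fold higher with the 32 hpf group set to 3 reads per library (adjusted p = 7.8e-07). Among members chosen after their values were seen, pou4f2, the third gene of that POU family, had 1573, 1346, 1539.8, 1019 and 1452 normalised counts at 56 hpf, against 19, 142, 40.7 and 12 at 32 hpf (log2 fold change 5.28, SE 0.52, adjusted p = 5.2e-06). The smallest change was that of the tubulin gene tubb5 (1.18). The 5 neurofilament members nefma, nefmb, nefla, neflb and inaa did not reach the filter.

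Genes of amacrine and horizontal cells, the inhibitory interneurons of the retina, had a median log2 fold change of 6.11. Of 19 members kept of 23, 17 were higher and 1 lower (89.5% and 5.26%, against 24.8% and 11.3% of all genes kept). The counts were 16 and 1 without replicates 1 and 2 at 56 hpf. calb2b (ENSDARG00000036344), which encodes the calcium-binding protein calretinin, had the largest increase of all genes that met the naming rule. It had no read at 32 hpf and 3935, 5223, 2173, 2055 and 993 normalised counts at 56 hpf, at least 1004-fold higher (adjusted p = 3.7e-09). Replicates 1 and 2 were the highest of the 5. gad2 (ENSDARG00000015537) encodes an enzyme of GABA synthesis and slc32a1 (ENSDARG00000059775) the vesicular GABA and glycine transporter. gad2 had 319, 129, 218, 278 and 182 normalised counts at 56 hpf, against 0.95, 1.02, 0 and 0 at 32 hpf (log2 change 7.26, SE 0.48, adjusted p = 3.0e-07). slc32a1 had 723, 713, 564, 568 and 335 normalised counts at 56 hpf, against 0.95, 12.3, 6.26 and 0 at 32 hpf (log2 change 7.24, SE 0.64, adjusted p = 2.2e-06). calb2a (ENSDARG00000041062), the second calretinin gene, had 817, 806, 342, 231 and 151 normalised counts at 56 hpf, against 3.8, 0, 0 and 2.4 at 32 hpf (log2 change 7.56, SE 0.65, adjusted p = 1.9e-06). None of these genes overlapped between the times. The transcription factor gene tfap2a, a marker of amacrine and horizontal cells chosen after its values were seen, had 4183, 3885, 3739, 4220.4 and 2925 normalised counts at 56 hpf, against 37.1, 166, 8.35 and 6.41 at 32 hpf (log2 fold change 7.19, SE 0.68, adjusted p = 4.1e-06). The glycine transporter gene slc6a9 was the member that fell and was chosen for that, with 326, 394, 436, 225 and 338 normalised counts at 56 hpf, against 1014, 786, 1049 and 679 at 32 hpf (log2 fold change -1.37, SE 0.21, adjusted p = 2.1e-04). In other vertebrates it is known from glia as well as from glycinergic amacrine cells. The acetylcholine synthesis gene chata and the dopamine synthesis gene th did not reach the filter.

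Of bipolar cell genes, 9 of 11 members kept of 16 were higher and the other 2, trpm1b and prkca, did not pass (median log2 fold change 3.30). The count was 9 without replicates 1 and 2 at 56 hpf. Higher members made up 81.8% of those kept with all 9 libraries, against 24.8% of all genes kept. vsx1 (ENSDARG00000056292), a homeobox gene of bipolar cells, had 10973, 12305, 12491, 12165 and 8646 normalised counts at 56 hpf, against 1176, 2323, 954 and 641 at 32 hpf (log2 fold change 3.30, SE 0.28, adjusted p = 1.9e-06), so that it was present in every library of both times. bhlhe23 (ENSDARG00000037588), a basic helix-loop-helix gene known from rod bipolar cells in the mouse, had 1745, 2128, 1604, 1887 and 1039 normalised counts at 56 hpf, against 5.7, 12.3, 3.13 and 1.6 at 32 hpf (log2 change 8.2, SE 0.41, adjusted p = 3.1e-08). gng13b (ENSDARG00000037921), a G-protein gamma subunit gene of the ON bipolar cascade in the mouse, had 8213, 8054, 5343, 5038 and 2901 normalised counts at 56 hpf, against 18.1, 71.7, 1.04 and 0 at 32 hpf (log2 change 9.57, SE 0.95, adjusted p = 6.0e-06). prdm8b (ENSDARG00000054683), a PR-domain gene needed for bipolar cells in the mouse, had 1135, 944, 1076, 1287 and 688 normalised counts at 56 hpf, against 18.1, 24.6, 0 and 0 at 32 hpf (log2 change 7.74, SE 0.87, adjusted p = 1.5e-05). At 32 hpf the reads of gng13b and prdm8b lay in replicates 2 and 3, apart from 1.04 normalised counts of gng13b in replicate 4, and the groups overlapped for none of these genes. The receptor cascade members grm6a and nyx did not reach the filter.

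**Figure D2:**
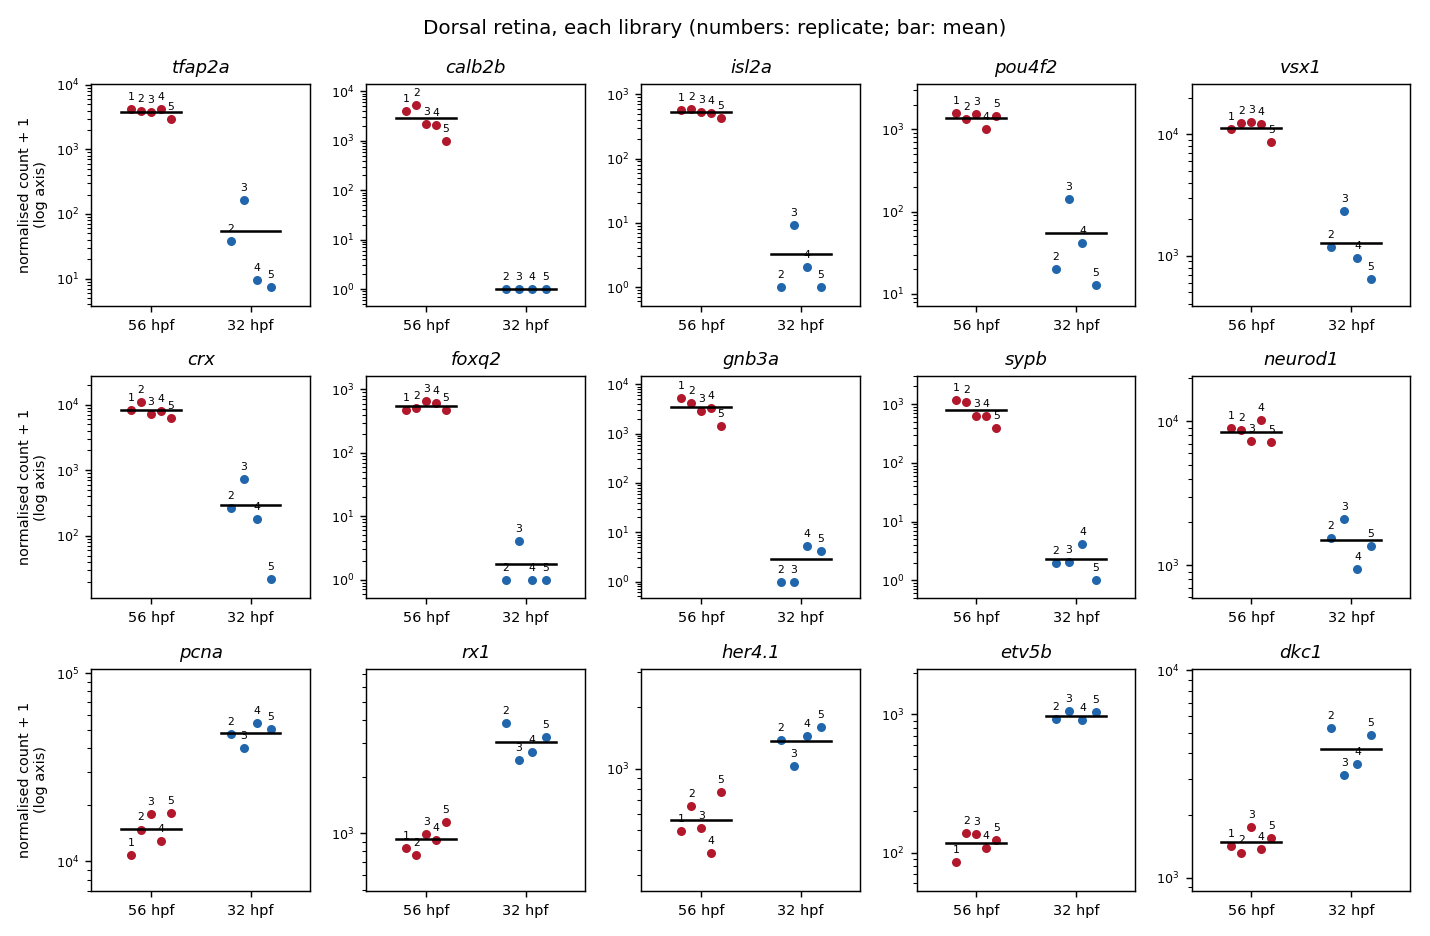
Normalised counts + 1 (log axis) of 15 genes in each dorsal retina library at 56 hpf (left, n = 5) and 32 hpf (right, n = 4), with the replicate number at each point and the mean as a bar. In the panels of the upper and middle rows every 56 hpf library lies above every 32 hpf library, and in the lower row every one lies below.

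Transcription factors that set photoreceptor fate were high at 56 hpf. Of 17 members kept of 18, 14 were higher and 1 lower (median log2 fold change 2.56), and 14 were higher without replicates 1 and 2 at 56 hpf. Shares higher and lower with all 9 libraries were 82.4% and 5.88%, against 24.8% and 11.3% of all genes kept. foxq2 (ENSDARG00000071394), a forkhead gene of blue cones in zebrafish, had 480.0, 517, 651, 618 and 469 normalised counts at 56 hpf, against 0, 3.07, 0 and 0 at 32 hpf (log2 fold change 8.58, SE 0.47, adjusted p = 5.7e-08). samd7 (ENSDARG00000060354), a repressor of non-rod genes in mouse rods, had 764, 738, 1029, 1311 and 780.5 normalised counts at 56 hpf, against 12.4, 42, 14.6 and 2.4 at 32 hpf (log2 change 6.09, SE 0.54, adjusted p = 2.3e-06), and rxrgb (ENSDARG00000004697), a retinoid X receptor gene, 412, 479, 474, 566 and 365 normalised counts at 56 hpf, against 30.4, 55.3, 26.1 and 43.3 at 32 hpf (log2 change 3.58, SE 0.26, adjusted p = 5.7e-07). foxq2 was thus close to absent at 32 hpf, while rxrgb was already present in all 4 libraries. neurod1 (ENSDARG00000019566), a basic helix-loop-helix gene of photoreceptor precursors and amacrine cells, had 9034, 8744, 7308, 10165 and 7141 normalised counts at 56 hpf, against 1550.2, 2109.9, 949 and 1371 at 32 hpf (log2 change 2.55, SE 0.21, adjusted p = 1.2e-06). The cone-rod homeobox gene crx, chosen after its values were seen, had 8198, 11021, 7130.4, 8104 and 6308 normalised counts at 56 hpf, against 261, 733, 182 and 20.8 at 32 hpf (log2 change 5.59, SE 0.70, adjusted p = 3.8e-05), and its 32 hpf libraries spread widely. The rod gene nrl did not reach the filter, with 8.32, 6.14, 9.7, 27.8 and 0 normalised counts at 56 hpf and no read at 32 hpf. The T-box gene tbx2b, needed for ultraviolet cones in zebrafish and also a dorsal eye gene, was the member that fell (log2 fold change -0.45, SE 0.13, adjusted p = 0.0145). The call of tbx2b ended in 3 of 23 alternatives, among them that without replicates 1 and 2 at 56 hpf.

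The light-signalling cascade itself was only partly detected. Of 69 phototransduction and outer segment genes, 25 reached the filter. Of these, 20 were higher and the others, pdca, prph2b, opn1sw2, gnat2 and gnb1b, did not pass (median log2 fold change 4.91). That is 80% of the members kept, against 24.8% of all genes kept. The other 44 had too few reads to be kept. There were 20 higher without replicates 1 and 2 at 56 hpf, and 12 with a filter at a mean of 50. gnb3a (ENSDARG00000004358), a beta subunit gene of cone and bipolar G proteins, had 5318, 4174, 2876, 3371 and 1456 normalised counts at 56 hpf, against 0, 0, 4.18 and 3.21 at 32 hpf (log2 fold change 10.51, SE 0.53, adjusted p = 3.1e-08). rcvrn2 (ENSDARG00000019902), a gene of the calcium sensor recoverin, had 2965, 3540.1, 1711, 2515 and 1466 normalised counts at 56 hpf, against 1.9, 15.4, 0 and 0 at 32 hpf (log2 change 9.78, SE 0.67, adjusted p = 4.0e-07). prom1b (ENSDARG00000034007), which encodes a protein of outer segment discs, had no read at 32 hpf and 415, 408, 327, 344 and 206 normalised counts at 56 hpf (at least 119-fold, adjusted p = 3.1e-08). These genes were high in all 5 libraries at 56 hpf. rs1a (ENSDARG00000027236), which encodes the secreted adhesion protein retinoschisin, had 2368, 3458, 647, 707 and 506 normalised counts at 56 hpf, against 19.96, 8.19, 5.22 and 20.8 at 32 hpf (log2 change 6.48, SE 0.57, adjusted p = 2.3e-06), with replicates 1 and 2 well above the other 3. Opsins, chosen here after their values were seen, were uneven. The rod opsin gene rho (ENSDARG00000002193) had 352, 412, 0, 0 and 0 normalised counts at 56 hpf and no read at 32 hpf, so that its reads lay in replicates 1 and 2 alone. The ultraviolet cone opsin gene opn1sw1 (ENSDARG00000045677) had 162, 247, 0, 0 and 0 at 56 hpf and no read at 32 hpf, in the same 2 libraries. The red cone opsin gene opn1lw2 (ENSDARG00000044861) had 749, 2507, 15, 103 and 32 normalised counts at 56 hpf, against 3.8, 1.02, 0 and 2.4 at 32 hpf (log2 change 6.05, SE 1.23, adjusted p = 0.00168), and the blue cone opsin gene opn1sw2 (ENSDARG00000017274) 31.9, 232, 13.2, 20.01 and 19.5 normalised counts at 56 hpf, against 13.3, 15.4, 28.2 and 39.3 at 32 hpf (log2 change 0.58, SE 0.74, adjusted p = 0.583). Red opsin was therefore above 32 hpf in each library, while blue opsin overlapped. Muscle and mesenchyme genes were high in the same 2 libraries. So was the fissure margin gene ntn1a, with 159.5 and 214 normalised counts, against 24.4 to 27.3 in replicates 3 to 5. Not every ventral eye gene was high in both. In the OF at 56 hpf rho averaged 17321 ± 9799 normalised counts and opn1sw1 2589.5 ± 3008 (SD, n = 5). The part of muscle, mesenchyme or fissure tissue in the opsin levels was not tested. Reads of tandem opsin copies such as opn1lw1 and opn1lw2 could be split between them by the counting.

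Visual cycle genes, which recycle the opsin chromophore, included 15 higher and 1 lower of 19 kept of 21 (median log2 fold change 2.52). Without replicates 1 and 2 at 56 hpf there were 13 and 1. Shares higher and lower with all 9 libraries were 78.9% and 5.26%, against 24.8% and 11.3% of all genes kept. rpe65a (ENSDARG00000007480), the retinoid isomerase gene of the pigment epithelium, had 889, 694, 437, 710.1 and 832 normalised counts at 56 hpf, against 28.5, 54.3, 41.8 and 44.1 at 32 hpf (log2 fold change 4.04, SE 0.26, adjusted p = 2.0e-07). The gene listed as irbp (ENSDARG00000059163), which encodes the retinoid-binding protein between photoreceptors and pigment epithelium, had 148, 119, 67, 69.6 and 148 normalised counts at 56 hpf, against 0.95, 0, 0 and 0 at 32 hpf (log2 change 6.47, SE 0.54, adjusted p = 1.5e-06). rdh8a (ENSDARG00000028048), a photoreceptor retinol dehydrogenase gene, had 1204, 815, 661, 1024 and 373 normalised counts at 56 hpf, against 39.9, 59.4, 26.1 and 56.9 at 32 hpf (log2 change 4.09, SE 0.34, adjusted p = 1.6e-06). The groups lay apart for each, and rgra (ENSDARG00000054890), a retinal G-protein coupled receptor gene, was well detected at both times, with means of 1547 ± 720.2 at 56 hpf and 251 ± 47.4 at 32 hpf (SD, n = 5 and 4, log2 change 2.52, SE 0.29, adjusted p = 1.8e-05). The member that fell was rdh10b, a retinol dehydrogenase gene of retinoic acid synthesis (-1.16), a call that ended in 8 of 23 alternatives.

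Nearly all genes of transmitter release and reception that were kept rose. Of 40 synaptic vesicle genes kept of 53, 38 were higher, and cplx2l and cplx3b did not pass (median log2 fold change 4.75). Of 27 receptor genes kept of 37, 24 were higher, and glra1, glra4a and gabrb1 did not pass (median 4.65). Vesicle and receptor members higher with all 9 libraries were 95% and 88.9% of those kept, against 24.8% of all genes kept. Without replicates 1 and 2 at 56 hpf, 37 and 22 were higher, and with a filter at a mean of 50 the receptor count was 10. sypb (ENSDARG00000002230), which encodes the vesicle protein synaptophysin, had 1171, 1106, 619, 634 and 394 normalised counts at 56 hpf, against 0.95, 1.02, 3.13 and 0 at 32 hpf (log2 fold change 8.5, SE 0.47, adjusted p = 5.7e-08). snap25b (ENSDARG00000058117), a gene of the vesicle fusion complex, had 3875, 4311, 2538, 2666 and 1656 normalised counts at 56 hpf, against 17.1, 27.7, 5.22 and 2.4 at 32 hpf (log2 change 8.12, SE 0.52, adjusted p = 2.0e-07). stxbp1a (ENSDARG00000001994), a gene of the syntaxin-binding protein, and syt5b (ENSDARG00000011640), a synaptotagmin gene, averaged 1244 ± 222 and 1542 ± 413 normalised counts at 56 hpf, against 49.6 ± 31 and 15.6 ± 13.6 at 32 hpf (SD, n = 5 and 4, log2 change 4.79, SE 0.32, adjusted p = 3.3e-07, and log2 change 6.91, SE 0.49, adjusted p = 5.0e-07). In sypb and snap25b replicates 1 and 2 were the highest and replicate 5 the lowest of the 56 hpf libraries. grin1a (ENSDARG00000027828), an NMDA receptor subunit gene, had no read at 32 hpf and 412, 496, 201, 158 and 107 normalised counts at 56 hpf, at least 95.9-fold higher (adjusted p = 4.0e-07). The AMPA receptor gene gria3a (ENSDARG00000032737) had at most 2.05 normalised counts in a 32 hpf library, and rose by 6.90 on the log2 scale.

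Axon guidance genes were called in both directions, but the share that fell was near that of all genes kept. Of 73 kept of 92 (netrin, semaphorin, plexin, neuropilin, slit, robo, unc5, ephrin and Eph families by name), 31 were higher and 8 lower (median log2 fold change 1.28). These are 42.5% and 11%, against 24.8% and 11.3% of all genes kept. Without replicates 1 and 2 at 56 hpf there were 27 and 8, and after quantile scaling 26 and 13. sema3aa (ENSDARG00000019235), a secreted semaphorin gene, had 536, 586, 680.0, 982 and 409 normalised counts at 56 hpf, against 84.6, 59.4, 61.6 and 40.1 at 32 hpf (log2 fold change 3.34, SE 0.28, adjusted p = 1.5e-06). robo2 (ENSDARG00000014891, 1 of 2 IDs with that name), the receptor gene for slit proteins that guides ganglion cell axons in zebrafish, had 744, 677, 691, 556 and 381 normalised counts at 56 hpf, against 22.8, 96.3, 29.2 and 13.6 at 32 hpf (log2 change 4.22, SE 0.44, adjusted p = 8.4e-06). The semaphorin receptor genes plxna4 (ENSDARG00000019328) and nrp2b (ENSDARG00000038446) rose as well, with means of 144 ± 55.7 and 563 ± 119.7 at 56 hpf, against 8.64 ± 4.13 and 146 ± 31 at 32 hpf (SD, n = 5 and 4, log2 change 3.92, SE 0.43, adjusted p = 1.2e-05, and log2 change 1.94, SE 0.21, adjusted p = 1.3e-05). The members that fell were sema3ab, epha4b, epha7, efna5a, unc5b, efna3b, ephb3a and efnb3a, with log2 fold changes between -2.11 and -0.93. The 2 semaphorin-3A genes thus moved apart, with sema3aa higher and sema3ab lower, although the calls of sema3ab, efna3b and efnb3a ended with DR replicate 1 at 32 hpf added.

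Genes of DNA synthesis fell almost without exception. Of 51 replication genes kept of 52, 49 were lower at 56 hpf, where 11.3% of all genes kept were, with a median log2 fold change of -1.49 and a range of -1.91 to -0.46. In 48 of them every 56 hpf library lay below every 32 hpf library, as in 9.41% of all genes kept. The count was 49 without replicates 1 and 2 at 56 hpf and between 48 and 49 in every alternative. The 2 that did not pass are IDs that share the name rrm2, so that their reads may be split. rfc2 (ENSDARG00000014274) and rfc5 (ENSDARG00000035634), subunits of the clamp loader, fell in every library. rfc2 had 656, 686, 825, 509.9 and 922 normalised counts at 56 hpf, against 2115, 2424, 2510.3 and 2615 at 32 hpf (log2 change -1.77, SE 0.17, adjusted p = 5.1e-06). rfc5 had 1103, 1208, 1276, 1048 and 1400.3 normalised counts at 56 hpf, against 2836, 2728, 3222 and 3433 at 32 hpf (log2 change -1.34, SE 0.14, adjusted p = 7.6e-06). mcm3 (ENSDARG00000024204), a subunit of the replicative helicase, had 913, 844, 1366, 1213 and 1679 normalised counts at 56 hpf, against 4022, 4245, 4011 and 4983 at 32 hpf (log2 change -1.88, SE 0.19, adjusted p = 7.7e-06). fen1 (ENSDARG00000011404), the flap endonuclease gene, had 1343, 1576, 2185, 1822 and 2331 normalised counts at 56 hpf, against 5019, 5257, 6238 and 6531 at 32 hpf (log2 change -1.66, SE 0.18, adjusted p = 9.8e-06). All stayed well detected at 56 hpf.

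Mitosis genes fell in part. Of 49 kept, 28 were lower and 21 did not pass (median log2 fold change -0.67), and 19 were lower without replicates 1 and 2 at 56 hpf (median -0.42). The 28 are 57.1% of the members kept, against 11.3% of all genes kept. ccna2 (ENSDARG00000011094), the cyclin A gene, had 2385, 2962, 4095, 3539 and 4033 normalised counts at 56 hpf, against 6845, 7182, 6554 and 6950.1 at 32 hpf (log2 fold change -1.04, SE 0.17, adjusted p = 2.8e-04). aspm (ENSDARG00000103754), a spindle pole gene, had 1519, 1535, 1907, 1752 and 2075 normalised counts at 56 hpf, against 2998, 3058, 3209 and 2898 at 32 hpf (log2 change -0.80, SE 0.13, adjusted p = 4.1e-04), and spc24 (ENSDARG00000093622), a kinetochore gene, 910.1, 1077, 1159.7, 910.2 and 919 normalised counts at 56 hpf, against 1587, 1621, 1841 and 1792 at 32 hpf (log2 change -0.79, SE 0.13, adjusted p = 4.7e-04). ccnb1 (ENSDARG00000051923), the cyclin B gene, averaged 2164 ± 531 at 56 hpf and 4011 ± 208 at 32 hpf (SD, n = 5 and 4, log2 change -0.92, SE 0.17, adjusted p = 9.5e-04). The groups did not overlap for any of these, which were picked for their small adjusted p. Over the list, every 56 hpf library lay below every 32 hpf library in 24 of 49, as in 9.41% of all genes kept.

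Factors of the eye field and of retinal progenitors did not move as one. Of 23 kept of 25, 10 were higher and 6 lower (median log2 fold change 0.37), and 9 and 5 without replicates 1 and 2 at 56 hpf. With all 9 libraries these are 43.5% and 26.1%, against 24.8% and 11.3% of all genes kept. rx3 (ENSDARG00000052893), a homeobox gene needed to form the eye, had 1448, 1989.6, 1388, 1529 and 844 normalised counts at 56 hpf, against 53.2, 83, 66.8 and 126 at 32 hpf (log2 fold change 4.13, SE 0.27, adjusted p = 3.0e-07), whereas its relative rx1 (ENSDARG00000071684) had 827, 761, 991, 915 and 1147 normalised counts at 56 hpf, against 3848, 2448, 2701 and 3255 at 32 hpf (log2 change -1.71, SE 0.17, adjusted p = 5.6e-06). The 2 genes were thus on opposite sides, both without overlap. The homeobox genes meis2a (ENSDARG00000098240) and meis2b (ENSDARG00000077840) rose. meis2a had 974, 981, 988, 969 and 717 normalised counts at 56 hpf, against 85.5, 172, 159 and 95.3 at 32 hpf (log2 change 2.90, SE 0.23, adjusted p = 9.4e-07). meis2b had 1676, 1487, 1983, 1911 and 1609 normalised counts at 56 hpf, against 10.5, 113, 4.18 and 16.8 at 32 hpf (log2 change 6.53, SE 0.63, adjusted p = 4.6e-06). The other members that rose were six6a, mab21l1, six3a, pax6b, six3b, six6b and pax6a, from 2.44 down to 0.43, and among those that fell beside rx1 were sox2, sox19a, tcf7l1a and fzd5, from -0.82 to -2.07. The calls of sox19a, pax6a and six6b ended in 14, 10 and 3 of 23 alternatives.

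Notch pathway genes fell. Of 28 kept of 30, 19 were lower and 1 higher (median log2 fold change -0.93), and 16 were lower without replicates 1 and 2 at 56 hpf. Shares lower and higher with all 9 libraries were 67.9% and 3.57%, against 11.3% and 24.8% of all genes kept. The ligand gene dld (ENSDARG00000020219) had 257, 188, 365, 285 and 458 normalised counts at 56 hpf, against 922, 923, 704 and 794 at 32 hpf (log2 fold change -1.48, SE 0.23, adjusted p = 2.4e-04). Of the effector genes, her4.2 (ENSDARG00000094426) had 544, 541, 456, 488 and 929 normalised counts at 56 hpf, against 1864, 1348, 1628 and 1767 at 32 hpf (log2 change -1.52, SE 0.20, adjusted p = 6.4e-05), her4.1 (ENSDARG00000056732) 494, 657, 511, 385 and 766 normalised counts at 56 hpf, against 1381, 1029, 1454 and 1604 at 32 hpf (log2 change -1.30, SE 0.21, adjusted p = 2.6e-04), and her15.1 (ENSDARG00000054560) 604, 588, 518, 304 and 493 normalised counts at 56 hpf, against 1322, 1212, 1038 and 977 at 32 hpf (log2 change -1.21, SE 0.20, adjusted p = 4.0e-04). Near-identical copies of the her4 and her15 genes can share reads, so their separate levels are uncertain. The groups lay apart for all 4. The other members that fell were the ligand genes dla, dlb, dlc and jag1b, the receptor genes notch1a, notch1b and notch3, and rbpjb, lfng, her2, her6, her9, hes2.2 and the second IDs named her4.2 and her15.1. The call of jag1b ended in 8 of 23 alternatives, and those of dlb, lfng and rbpjb without replicates 1 and 2 at 56 hpf. The effector gene hey2 was higher (1.2), a call that ended in 14 of 22 alternatives, among them TMM scaling, quantile scaling, edgeR and the fit without replicates 1 and 2 at 56 hpf.

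Genes of neurogenesis moved in both directions. Of 19 kept of 21, 7 were higher and 7 lower (36.8% each, against 24.8% and 11.3% of all genes kept). Without replicates 1 and 2 at 56 hpf the counts were 7 and 5. Beside neurod1, the basic helix-loop-helix genes neurod2 (ENSDARG00000016854) and nhlh2 (ENSDARG00000025495) of differentiating neurons rose. neurod2 had 135, 109.5, 65.3, 90.5 and 53 normalised counts at 56 hpf, against 0, 0, 0 and 2.4 at 32 hpf (log2 change 6.0, SE 0.59, adjusted p = 5.3e-06). nhlh2 had 1383, 1354, 1035, 766 and 888 normalised counts at 56 hpf, against 209, 193, 79.3 and 88.1 at 32 hpf (log2 change 3.02, SE 0.30, adjusted p = 6.4e-06). btg1 (ENSDARG00000027249), an antiproliferative gene, averaged 9313 ± 1347 at 56 hpf and 3243 ± 1235 at 32 hpf (SD, n = 5 and 4, log2 change 1.6, SE 0.23, adjusted p = 1.4e-04). ascl1b, neurog1 and cdkn1bb also rose. Those that fell were ascl1a, hes6, atoh7, onecut1, btg2, gadd45gb.1 and ebf2, and the calls of btg2 and ebf2 ended in 7 and 6 of 23 alternatives, among them that without replicates 1 and 2 at 56 hpf. atoh7, the basic helix-loop-helix gene required for ganglion cells and chosen after its values were seen, had 1680.1, 2369, 2095, 1488 and 2293 normalised counts at 56 hpf, against 3395, 5841, 4413 and 2514 at 32 hpf (log2 fold change -0.98, SE 0.23, adjusted p = 0.00406). Its groups did not overlap, although replicate 5 at 32 hpf came close to replicate 2 at 56 hpf.

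Growth genes were lower at 56 hpf. Of 13 Myc, Lin28, Hmga and RNA-binding growth genes kept, 9 were lower and 2 higher (median log2 fold change -0.76), with 8 lower without replicates 1 and 2 at 56 hpf. Shares lower and higher with all 9 libraries were 69.2% and 15.4%, against 11.3% and 24.8% of all genes kept. Only 3 were lower with DR replicate 1 at 32 hpf added. mych (ENSDARG00000077473), mycn (ENSDARG00000006837) and mycla (ENSDARG00000006003), of the Myc family that drives growth, averaged 320.2 ± 92.4, 1042 ± 253 and 1293 ± 358 at 56 hpf, against 1106 ± 160.1, 2569.9 ± 759 and 2551 ± 202 at 32 hpf (SD, n = 5 and 4, log2 change -1.83, SE 0.23, adjusted p = 3.6e-05, log2 change -1.28, SE 0.22, adjusted p = 4.6e-04, and log2 change -1.02, SE 0.20, adjusted p = 0.00108). The call of mycla ended with that library added. sox4a (ENSDARG00000004588), a SoxC gene of newborn neurons, went the other way with 3301, 2718, 2753, 3510.3 and 2784 normalised counts at 56 hpf, against 58, 335, 150.3 and 64.9 at 32 hpf (log2 change 4.66, SE 0.40, adjusted p = 1.9e-06), as did mycb (1.07). Ribosome biogenesis genes fell with them, 33 of 34, while polr1b did not pass (median -1.12), and 31 without replicates 1 and 2 at 56 hpf. The 33 are 97.1% of the members kept, against 11.3% of all genes kept. dkc1 (ENSDARG00000016484), the pseudouridine synthase gene of ribosomal RNA, had 1416, 1323, 1753, 1371 and 1556 normalised counts at 56 hpf, against 5288, 3122, 3523 and 4861 at 32 hpf (log2 change -1.47, SE 0.17, adjusted p = 2.2e-05). rrs1 (ENSDARG00000003941), nop58 (ENSDARG00000104353) and nop2 (ENSDARG00000043304), all of ribosome assembly, fell by 1.44, 1.43 and 1.23 on the log2 scale (adjusted p between 2.4e-05 and 4.0e-05). Of 81 ribosomal protein genes 20 were lower (24.7%, against 11.3% of all genes kept) and 1 higher (median -0.53). However, the number lower ran from 2 to 59 over the alternatives. It was 21 without replicates 1 and 2 at 56 hpf, 8 without replicate 1 alone, 59 without replicate 2 alone, 7 and 10 without replicates 4 and 5 at 56 hpf, and 53, 6 and 7 without replicates 3, 4 and 5 at 32 hpf. rpl7l1 (ENSDARG00000042864), rpl5a (ENSDARG00000020197), rpl4 (ENSDARG00000041182) and rplp0 (ENSDARG00000051783) had the smallest adjusted p, with log2 fold changes of -0.97, -0.77, -0.70 and -0.81, and rpl7l1 and rpl5a kept their call in every alternative. Nuclear genes of mitochondrial respiration had a median of 0.02 (-0.12 after TMM scaling), and 7 of 90 were higher (7.78%, against 24.8% of all genes kept). That count was 4 without replicate 2 or 5 at 56 hpf, 3 without replicate 2 or 5 at 32 hpf and 3 without replicates 1 and 2 at 56 hpf. cox4i2 (ENSDARG00000022509) and ndufa4 (ENSDARG00000056108), cytochrome oxidase subunit genes, averaged 518 ± 315 and 403 ± 185 at 56 hpf, against 30.8 ± 15.3 and 28.6 ± 9.06 at 32 hpf (SD, n = 5 and 4, log2 change 3.95, SE 0.40, adjusted p = 7.1e-06, and log2 change 3.63, SE 0.44, adjusted p = 2.7e-05). cox6b1 rose by 1.29, and ndufs8b by 3.54 with overlapping groups and a call that ended in 9 alternatives.

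Genes of growth factor pathways were called in part, mostly as lower, and several pathway targets did not pass. Of 12 genes that FGF signalling induces, 6 were lower and the other 6 did not pass (median log2 fold change -0.94). The share lower was 50%, against 11.3% of all genes kept. 5 were lower without replicates 1 and 2 at 56 hpf, and 10 after quantile scaling. etv5b (ENSDARG00000044511), an ETS factor gene that FGF signalling induces, had 84.6, 137, 136, 106 and 122 normalised counts at 56 hpf, against 921, 1051, 916 and 1037 at 32 hpf (log2 fold change -3.08, SE 0.19, adjusted p = 1.4e-07). Its relatives etv5a (ENSDARG00000069763) and etv4 (ENSDARG00000018303) fell too. etv5a had 239, 185, 185, 225 and 246 normalised counts at 56 hpf, against 539.9, 521, 467 and 524 at 32 hpf (log2 change -1.25, SE 0.17, adjusted p = 7.2e-05). etv4 had 76.3, 28.7, 31.7, 15.7 and 14 normalised counts at 56 hpf, against 176, 118, 234 and 307 at 32 hpf (log2 change -2.79, SE 0.48, adjusted p = 4.7e-04). The inhibitor gene spry2 (ENSDARG00000078308) averaged 327 ± 94.4 at 56 hpf and 629 ± 88.6 at 32 hpf (log2 change -0.98, SE 0.22, adjusted p = 0.00292), a call that ended with DR replicate 1 at 32 hpf added. The groups of the 3 ETS genes lay far apart. dusp6, another target of the pathway, did not pass (-0.13). Of 15 Wnt targets and feedback genes, 6 were lower and 1 higher (median -0.86). Shares lower and higher were 40% and 6.67%, against 11.3% and 24.8% of all genes kept. 7 were lower without replicates 1 and 2 at 56 hpf, and 10 after quantile scaling. sfrp5 (ENSDARG00000039041) and sfrp1a (ENSDARG00000035521), genes of secreted Wnt antagonists, had some of the largest decreases. sfrp5 had 58.3, 3.07, 7.94, 28.7 and 31.2 normalised counts at 56 hpf, against 265, 201, 353 and 601 at 32 hpf (log2 change -4.16, SE 0.67, adjusted p = 3.0e-04). sfrp1a had 201, 136, 122, 191 and 177 normalised counts at 56 hpf, against 1102, 671, 1188 and 1384 at 32 hpf (log2 change -2.69, SE 0.23, adjusted p = 2.1e-06). ccnd1 (ENSDARG00000101637), the cyclin D gene, had 4619, 5564, 7068, 5343 and 8049.6 normalised counts at 56 hpf, against 18750.0, 15359, 16208 and 17368 at 32 hpf (log2 change -1.49, SE 0.17, adjusted p = 2.2e-05), and fzd8a (ENSDARG00000045444), a Wnt receptor gene, 159.5, 118, 121, 163 and 133 normalised counts at 56 hpf, against 468, 249.9, 469.7 and 456 at 32 hpf (log2 change -1.53, SE 0.23, adjusted p = 2.0e-04). The target gene axin2 did not pass (-0.05). Of 11 Hedgehog pathway genes, 5 were lower and 2 higher (45.5% and 18.2%, against 11.3% and 24.8% of all genes kept). The same counts of 5 and 2 held without replicates 1 and 2 at 56 hpf. Of the 2 higher calls, however, 1 (not that of shha below) ended in 13 of 23 alternatives, among them TMM scaling, quantile scaling and edgeR. The co-receptor gene cdon (ENSDARG00000061328), the signal transducer gene smo (ENSDARG00000002952) and the transcription factor gene gli2a (ENSDARG00000025641) averaged 315 ± 65.2, 390.2 ± 81.1 and 81.3 ± 20.7 at 56 hpf, against 789 ± 86, 815 ± 42.1 and 218 ± 35.3 at 32 hpf (SD, n = 5 and 4, log2 change -1.34, SE 0.18, adjusted p = 8.6e-05, log2 change -1.08, SE 0.17, adjusted p = 2.7e-04, and log2 change -1.43, SE 0.26, adjusted p = 7.4e-04). The ligand gene shha (ENSDARG00000068567), which ganglion and amacrine cells express in the zebrafish retina, rose, with 16.6, 34.8, 62.6, 31.3 and 50.7 normalised counts at 56 hpf, against 0.95, 10.2, 0 and 0 at 32 hpf (log2 change 4.09, SE 0.78, adjusted p = 0.00107). The target genes ptch1, gli1 and hhip did not pass.

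Genes that mark the dorsal eye were measured because they check the dissection and because the dorsal retina was the tissue studied. All 14 were kept, 6 were lower and 3 higher (median log2 fold change -0.51), and without replicates 1 and 2 at 56 hpf 5 were lower and 1 higher. With all 9 libraries these are 42.9% lower and 21.4% higher, against 11.3% and 24.8% of all genes kept. Every member had reads in each of the 9 libraries. aldh1a2 (ENSDARG00000053493), which makes retinoic acid in dorsal retina, had 659, 505, 513, 239 and 1032 normalised counts at 56 hpf, against 1893, 1667, 2833 and 2549 at 32 hpf (log2 fold change -2.04, SE 0.33, adjusted p = 2.8e-04). bambia (ENSDARG00000055381), a pseudoreceptor gene that dampens BMP signalling, had 1333, 1712, 1714, 1362 and 2072 normalised counts at 56 hpf, against 4477, 3454, 4488 and 4503 at 32 hpf (log2 change -1.38, SE 0.16, adjusted p = 2.1e-05), and the BMP-family ligand gene gdf6a (ENSDARG00000053479) 121, 73.7, 135, 151 and 175 normalised counts at 56 hpf, against 392, 265, 412 and 412 at 32 hpf (log2 change -1.53, SE 0.26, adjusted p = 4.9e-04). The groups of all 3 lay apart, and the spread of aldh1a2 at 56 hpf was wide. unc5b (ENSDARG00000033327), a netrin receptor gene, had 211, 239, 164, 136 and 186 normalised counts at 56 hpf, against 498, 403, 613 and 673 at 32 hpf (log2 change -1.54, SE 0.22, adjusted p = 1.1e-04), and the T-box gene tbx5a (ENSDARG00000024894) 66.6, 89, 48.5, 84.4 and 94.3 normalised counts at 56 hpf, against 101, 186, 193 and 197 at 32 hpf (log2 change -1.12, SE 0.30, adjusted p = 0.0104). tbx5a and gdf6a lost their call with DR replicate 1 at 32 hpf added. The T-box genes tbx3a (ENSDARG00000002216) and tbx2a (ENSDARG00000018025) were higher. tbx3a had 1247, 1095, 851, 901 and 858 normalised counts at 56 hpf, against 839, 527, 566 and 728 at 32 hpf (log2 change 0.58, SE 0.18, adjusted p = 0.0222). tbx2a had 953, 884, 935, 1062 and 932 normalised counts at 56 hpf, against 771, 692, 769 and 663 at 32 hpf (log2 change 0.40, SE 0.13, adjusted p = 0.0298). So was the ephrin gene efnb2b (ENSDARG00000074050) with 230.2 ± 83.5 normalised counts at 56 hpf and 125 ± 35.8 at 32 hpf (SD, n = 5 and 4, log2 change 0.84, SE 0.31, adjusted p = 0.0455). The calls of tbx3a, tbx2a and efnb2b ended in 9, 10 and 14 of the 23 alternatives. tbx5b, tbx4, bmp4, efnb2a and foxi1 did not pass, with log2 fold changes of -0.55, -0.48, -0.20, -0.22 and -0.92. For tbx4 every 56 hpf library was nevertheless below every 32 hpf library (247, 201, 244, 331 and 274, against 355, 368, 345 and 362; adjusted p = 0.0527).

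Of 11 ventral eye genes, 5 reached the filter in this dorsal tissue, 2 were lower and 1 was higher, and without replicates 1 and 2 at 56 hpf 2 were lower and 0 higher. With all 9 libraries these are 40% and 20% of the members kept, against 11.3% and 24.8% of all genes kept. pax2a (ENSDARG00000028148) and pax2b (ENSDARG00000032578), paired-box genes of the optic stalk, fell. pax2a had 55.5, 3.07, 7.06, 0 and 19.5 normalised counts at 56 hpf, against 93.1, 94.2, 114 and 257 at 32 hpf (log2 change -3.95, SE 0.93, adjusted p = 0.00437). pax2b had 22.2, 4.09, 14.1, 6.96 and 10.9 normalised counts at 56 hpf, against 21.9, 60.4, 47 and 44.1 at 32 hpf (log2 change -1.91, SE 0.56, adjusted p = 0.0165). pax2a lay apart between the times, while pax2b overlapped and lost its call in 3 alternatives. vax2 (ENSDARG00000058702), a homeobox gene of the ventral retina, had 25, 5.12, 13.2, 44.4 and 10.1 normalised counts at 56 hpf, against 0, 7.17, 8.35 and 0 at 32 hpf (log2 change 2.46, SE 0.90, adjusted p = 0.0481), a call that ended in 13 of 22 alternatives. vax1 (ENSDARG00000021916) had 22.2, 5.12, 7.94, 14.8 and 0 at 56 hpf and 3.8, 0, 0 and 0 at 32 hpf and was not kept. For aldh1a3 (ENSDARG00000076933), whose enzyme makes retinoic acid, values were 22.2, 0, 0, 2.61 and 0 at 56 hpf and 0, 0, 1.04 and 0 at 32 hpf. grem2b (ENSDARG00000103092), smoc1 (ENSDARG00000088255), smoc2 (ENSDARG00000088157) and foxi2 (ENSDARG00000069715) were not kept either, with at most 10.2, 11.1, 26.4 and 45.8 normalised counts in any of the 9 libraries. For vax1, aldh1a3, smoc1, smoc2 and foxi2 the highest value was that of replicate 1 at 56 hpf. ntn1a (ENSDARG00000105112), the netrin gene of the fissure margin, had 159.5, 214, 26.5, 24.4 and 27.3 normalised counts at 56 hpf, against 10.5, 29.7, 29.2 and 28 at 32 hpf (log2 change 1.31, SE 0.69, adjusted p = 0.163), with replicates 1 and 2 at 56 hpf far above the rest. ephb2b (ENSDARG00000021539), an ephrin receptor gene of the ventral retina, did not pass (0.39).

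Glial genes were called in both directions. Of 14 Müller glia genes kept, 4 were higher (28.6%, near the 24.8% of all genes kept) and 5 lower (35.7%, against 11.3%). Without replicates 1 and 2 at 56 hpf the counts were 4 and 4. With DR replicate 1 at 32 hpf added, 3 were lower, and rlbp1a lost its call. rlbp1a (ENSDARG00000012504), a retinaldehyde-binding protein gene listed here with glia but known from pigment epithelium, and apoeb (ENSDARG00000040295), an apolipoprotein gene, rose. rlbp1a had 1153, 1252, 1002, 1226 and 954 normalised counts at 56 hpf, against 133, 343, 469.7 and 207 at 32 hpf (log2 change 2.1, SE 0.29, adjusted p = 9.3e-05). apoeb had 368, 299, 650.0, 409.9 and 313 normalised counts at 56 hpf, against 41.8, 153, 81.4 and 95.3 at 32 hpf (log2 change 2.21, SE 0.34, adjusted p = 2.2e-04). slc1a3a (ENSDARG00000104431), a glutamate transporter gene, sox9b (ENSDARG00000043923), a progenitor and glial transcription factor gene, and gfap (ENSDARG00000025301), the glial filament gene, fell. slc1a3a and sox9b averaged 93.5 ± 25.4 and 831 ± 224 at 56 hpf, against 301 ± 62.7 and 1687 ± 132 at 32 hpf (SD, n = 5 and 4, log2 change -1.69, SE 0.25, adjusted p = 1.6e-04, and log2 change -1.06, SE 0.18, adjusted p = 4.3e-04). gfap had 29.1, 13.3, 3.53, 0.87 and 12.5 normalised counts at 56 hpf, against 31.4, 100.4, 77.2 and 62.5 at 32 hpf (log2 change -2.87, SE 0.75, adjusted p = 0.00843). Of 14 pigment epithelium and melanin genes, 4 were higher (28.6%, near the 24.8% of all genes kept) and the other 10 did not pass (median log2 fold change 0.31). Without replicates 1 and 2 at 56 hpf 5 were higher. tyrp1b (ENSDARG00000056151), a melanin synthesis gene, had 24433, 20061, 19492, 23882 and 26919 normalised counts at 56 hpf, against 10432, 10349, 11013 and 9749.7 at 32 hpf (log2 change 1.13, SE 0.15, adjusted p = 6.1e-05), pmelb (ENSDARG00000033760), a melanosome matrix gene, 2979, 4718, 3488, 4238 and 6769 normalised counts at 56 hpf, against 1664, 2032, 2802 and 2095 at 32 hpf (log2 change 1.01, SE 0.22, adjusted p = 0.00292), and best1 (ENSDARG00000078331), a chloride channel gene of the pigment epithelium, 61, 77.8, 58.2, 83.5 and 65.5 normalised counts at 56 hpf, against 11.4, 29.7, 23 and 15.2 at 32 hpf (log2 change 1.83, SE 0.39, adjusted p = 0.0024). The call of best1 ended after quantile scaling. gpr143 rose by 0.54 with a call that ended in 12 alternatives. The summed level of the list was 39195 to 57668 at 56 hpf and 25714 to 28579 at 32 hpf, so that melanin gene reads were present in each library. Their part in the visual cycle genes that the pigment epithelium shares was not tested.

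Genes of the daily clock were called at this 24 h spacing at a share (37.8%) near that of all genes kept (36.1%). Of 37 clock and clock output genes kept of 40, 13 were higher (35.1%, against 24.8% of all genes kept), 1 was lower and 23 did not pass. 10 were higher without replicates 1 and 2 at 56 hpf, 7 after quantile scaling and 8 with edgeR. A p that misses the threshold does not show that levels were alike. aanat2 (ENSDARG00000079802), which encodes the melatonin-forming enzyme of photoreceptors and pineal, had 755, 681, 594, 716 and 373 normalised counts at 56 hpf, against 0, 1.02, 2.09 and 0 at 32 hpf (log2 fold change 8.58, SE 0.44, adjusted p = 3.6e-08). The nuclear receptor genes roraa (ENSDARG00000031768) and rorab (ENSDARG00000001910) rose. roraa had 739, 647, 557, 440.3 and 449 normalised counts at 56 hpf, against 57, 81.9, 74.1 and 60.9 at 32 hpf (log2 change 3.02, SE 0.22, adjusted p = 5.7e-07). rorab had 1565, 1523, 1549.5, 1989 and 1051 normalised counts at 56 hpf, against 501, 462, 342 and 412 at 32 hpf (log2 change 1.82, SE 0.19, adjusted p = 7.6e-06). nfil3-6 (ENSDARG00000087188), a bZIP gene, had 112, 132, 106, 127 and 32 normalised counts at 56 hpf, against 4.75, 0, 2.09 and 13.6 at 32 hpf (log2 change 4.53, SE 0.73, adjusted p = 2.9e-04). These 4 lay apart between the times. Among core genes, chosen after their values were seen, the repressor gene per1b had 108, 142, 223, 185 and 115 normalised counts at 56 hpf, against 134, 131, 78.3 and 56.1 at 32 hpf (log2 change 0.66, SE 0.33, adjusted p = 0.137), and the activator genes clocka and arntl1a had log2 fold changes of 0.26 and 0.32 (adjusted p = 0.51 and 0.416). At 32, 48 and 56 hpf per1b averaged 99.9 ± 38.8, 744 ± 129.6 and 155 ± 48.7 normalised counts, and ciarta, a repressor gene of the clock, 127 ± 44.2, 853 ± 166 and 335 ± 51.1 (SD, n = 4, 4 and 5). Both were highest at 48 hpf, which lies at another hour of the day, and ciarta was also higher at 56 than at 32 hpf (log2 change 1.46, SE 0.26, adjusted p = 6.6e-04). bhlhe40, the member that fell, had 114, 132, 216, 155 and 131 normalised counts at 56 hpf, against 246, 559, 498 and 401 at 32 hpf (log2 change -1.48, SE 0.27, adjusted p = 7.2e-04).

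The 10 largest increases, over genes that have a symbol and averaged 50 or more in the group where they were higher, were calb2b, ckmt2a, gnb3a, rcvrn2, gng13b, rbfox1, cacng3b, opn6a, camk2d2 and arl3l1. ckmt2a (ENSDARG00000069615), a mitochondrial creatine kinase gene, had 2708, 2692, 1327, 2236 and 1220.2 normalised counts at 56 hpf, against 0.95, 0, 0 and 0 at 32 hpf (log2 fold change 10.67, SE 0.37, adjusted p = 3.2e-09). opn6a (ENSDARG00000102430), a nonvisual opsin gene, had 1043, 1079, 479.8, 666 and 418 normalised counts at 56 hpf, against 0, 0, 1.04 and 0.801 at 32 hpf (log2 change 8.95, SE 0.43, adjusted p = 3.1e-08). arl3l1 (ENSDARG00000102393), an ADP-ribosylation-factor-like gene, had 1271, 1608, 1080.4, 1279 and 865 normalised counts at 56 hpf, against 3.8, 8.19, 0 and 0 at 32 hpf (log2 change 8.86, SE 0.59, adjusted p = 3.0e-07). In a 32 hpf library the highest value of the 10 was 71.7 (gng13b, replicate 3), followed by 18.1 (gng13b, replicate 2) and 15.4 (rcvrn2, replicate 3), and the other values were at most 8.19. rbfox1 (ENSDARG00000014746), a neuronal splicing factor gene, cacng3b (ENSDARG00000076401), a calcium channel and AMPA receptor auxiliary subunit gene, and camk2d2 (ENSDARG00000014273), a calmodulin kinase gene, had no read at 32 hpf and were at least 278-fold, 185-fold and 170.0-fold higher (adjusted p = 1.7e-08 for each). The 10 largest decreases were prtgb, pax8, sfrp5, pax2a, apip, zbtb16a, etv5b, rnaseh2c, wnt8b and gfap. prtgb (ENSDARG00000040442), a protogenin gene of undifferentiated neural tissue, had 6.94, 6.14, 3.53, 0 and 0.78 normalised counts at 56 hpf, against 110.3, 55.3, 44.9 and 61.7 at 32 hpf (log2 change -4.26, SE 0.71, adjusted p = 3.6e-04). zbtb16a (ENSDARG00000007184), a zinc finger gene of neural progenitors, had 31.9, 73.7, 121, 73.1 and 92.8 normalised counts at 56 hpf, against 541, 472, 646 and 1016 at 32 hpf (log2 change -3.13, SE 0.35, adjusted p = 1.5e-05). wnt8b (ENSDARG00000006911), a Wnt ligand gene, had 22.2, 1.02, 7.06, 5.22 and 17.2 normalised counts at 56 hpf, against 66.5, 57.4, 72 and 62.5 at 32 hpf (log2 change -2.95, SE 0.66, adjusted p = 0.00329). Each of these was lower in every 56 hpf library. pax8 (ENSDARG00000015879), a paired-box gene, had 4.16, 4.09, 0, 0 and 0 normalised counts at 56 hpf, against 11.4, 16.4, 45.9 and 171 at 32 hpf (log2 change -4.24, SE 0.92, adjusted p = 0.00266), with replicate 5 at 32 hpf well above the other 3. The calls of prtgb and pax8 ended with DR replicate 1 at 32 hpf added. rnaseh2c (ENSDARG00000089637), a ribonuclease subunit gene, had 48.6, 331, 371, 318 and 39 normalised counts at 56 hpf, against 1489, 767, 1774 and 1009.6 at 32 hpf (log2 change -2.99, SE 0.63, adjusted p = 0.00225). apip (ENSDARG00000003132), a methionine salvage gene, had 209, 304, 0, 19.1 and 14.8 normalised counts at 56 hpf, against 623, 279, 480.1 and 462 at 32 hpf (log2 change -3.94, SE 1.26, adjusted p = 0.0252), with overlapping groups and a call that ended in 7 alternatives.

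Genes of cells that the dissection could carry were read in every library. Summed skeletal muscle genes came to 6910.4, 13244, 294, 198 and 238 normalised counts at 56 hpf and 121, 77.8, 88.7 and 70.5 at 32 hpf, lens genes to 5660.4, 353, 127, 173 and 155 and 109, 90.1, 154 and 64.9, and periocular mesenchyme and neural crest genes to 2701, 2797, 385, 517 and 824 and 611, 366, 1106 and 419.9. Muscle and mesenchyme sums were thus high in replicates 1 and 2 at 56 hpf, and lens in replicate 1. In the muscle list 7 of 24 members were kept and 3 higher (42.9%, against 24.8% of all genes kept). The count was 2 without replicates 1 and 2 at 56 hpf, and 6 with edgeR, with DESeq2 or without replicate 4 at 56 hpf. In the lens list 7 of 59 were kept and 4 higher (57.1%). The count was 2 without replicates 1 and 2 at 56 hpf, and also without replicate 1 at 56 hpf or replicate 2, 4 or 5 at 32 hpf. In the mesenchyme list 17 of 21 were kept and 2 higher (11.8%, and neither without replicates 1 and 2 at 56 hpf, where 2 others were lower). That count was 6 without replicate 3 at 56 hpf and 5 with DESeq2, and 1 without replicate 1, 2 or 5 at 56 hpf or replicate 3 or 5 at 32 hpf. ckma (ENSDARG00000035327), the muscle creatine kinase gene, had 477, 552, 21.2, 13.9 and 0 at 56 hpf and no read at 32 hpf, with a call that ended without replicates 1 and 2 at 56 hpf, and tpma (ENSDARG00000033683), a tropomyosin gene, 56.9, 38.9, 15, 24.4 and 36.6 normalised counts at 56 hpf, against 0, 11.3, 0 and 0 at 32 hpf (log2 change 4.11, SE 0.83, adjusted p = 0.00157). acta1b and actc1b, muscle actin genes, averaged 105 ± 51.4 and 1463 ± 2137 at 56 hpf, against 26.7 ± 8.47 and 10.6 ± 9.06 at 32 hpf (adjusted p = 0.00378 and 0.0785), and the call of acta1b ended in 3 alternatives. The lens genes mipa (ENSDARG00000037285) and lim2.3 (ENSDARG00000037402) had 240.0, 20.5, 12.3, 19.1 and 18.7, and 73.5, 20.5, 9.7, 10.4 and 27.3 at 56 hpf and no read at 32 hpf (adjusted p = 4.8e-04 and 3.6e-04), and cryba4 and pitx3 rose by 2.35 and 3.17 with calls that ended in 10 and 11 alternatives. ltk and sox10 of the neural crest rose by 2.94 and 1.31 with calls that ended in 2 of 22 and 9 of 23 alternatives, and snai2 and alx1 did not pass (1.5 and 1.52). Of 17 red blood cell genes kept of 25, 8 were higher and 1 lower (47.1% and 5.88%, against 24.8% and 11.3% of all genes kept). The number higher was 2 without replicates 1 and 2 at 56 hpf. Leaving out replicate 1, 2 or 3 at 56 hpf gave 5, and replicate 4 or 5 at 32 hpf gave 4, whereas there were 12 without replicate 4 at 56 hpf and 10 without replicate 3 at 32 hpf. Their sum was 11634, 16802, 8304, 858 and 4793 at 56 hpf and 1479.9, 2645, 449 and 246 at 32 hpf. cahz (ENSDARG00000011166), the red cell carbonic anhydrase gene, had 745, 806, 489, 336 and 341 normalised counts at 56 hpf, against 30.4, 65.6, 4.18 and 0 at 32 hpf (log2 change 5.64, SE 0.93, adjusted p = 3.4e-04), and blvrb, hbbe2 and alas2 rose by 2.04, 3.99 and 3.70. The calls of hbbe2 and alas2 ended without replicates 1 and 2 at 56 hpf. Embryonic globin copies can share reads. Endothelial genes had sums of 2063 to 3130.5 at 56 hpf and 1284 to 2788 at 32 hpf. Of 22 kept, 3 were higher (13.6%, against 24.8% of all genes kept), and 2 without replicates 1 and 2 at 56 hpf. The 3 were the transcription regulator genes erg (ENSDARG00000077304) and lmo2 (ENSDARG00000095019) and the junction gene esama (ENSDARG00000077039). They averaged 16.4 ± 4.17, 199.9 ± 46.6 and 65.5 ± 39.3 at 56 hpf, against 0.2 ± 0.401, 52.2 ± 27 and 8.33 ± 7.04 at 32 hpf (SD, n = 5 and 4, log2 change 3.88, SE 0.65, adjusted p = 4.0e-04, log2 change 2.03, SE 0.35, adjusted p = 4.9e-04, and log2 change 3.2, SE 0.80, adjusted p = 0.0066), while sox18 did not pass (-0.62). The call of esama ended without replicates 1 and 2 at 56 hpf, and 7 of the list were higher with all 30 libraries fitted. Of 8 macrophage and microglia genes kept of 22, limma and edgeR called 0 and DESeq2 1, and 3 were higher in limma at an unadjusted p under 0.05. limma called 1 to 3 without replicate 2, 3 or 4 at 56 hpf or replicate 2 or 3 at 32 hpf, and 0 without replicates 1 and 2 at 56 hpf. coro1a, lcp1, spi1a and spi1b had log2 fold changes of 1.24, 1.77, 2.05 and 1.78. Of 6 epidermal genes kept 2 were higher (33.3%, against 24.8% of all genes kept), krt94 and icn (3.24 and 2.87). The keratin genes krt4 and krt18 did not pass (1.78 and -0.51). Neither krt94 nor icn kept its call without replicates 1 and 2 at 56 hpf. The part of these cell types in the neuronal changes was not tested.

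**Figure D3:**
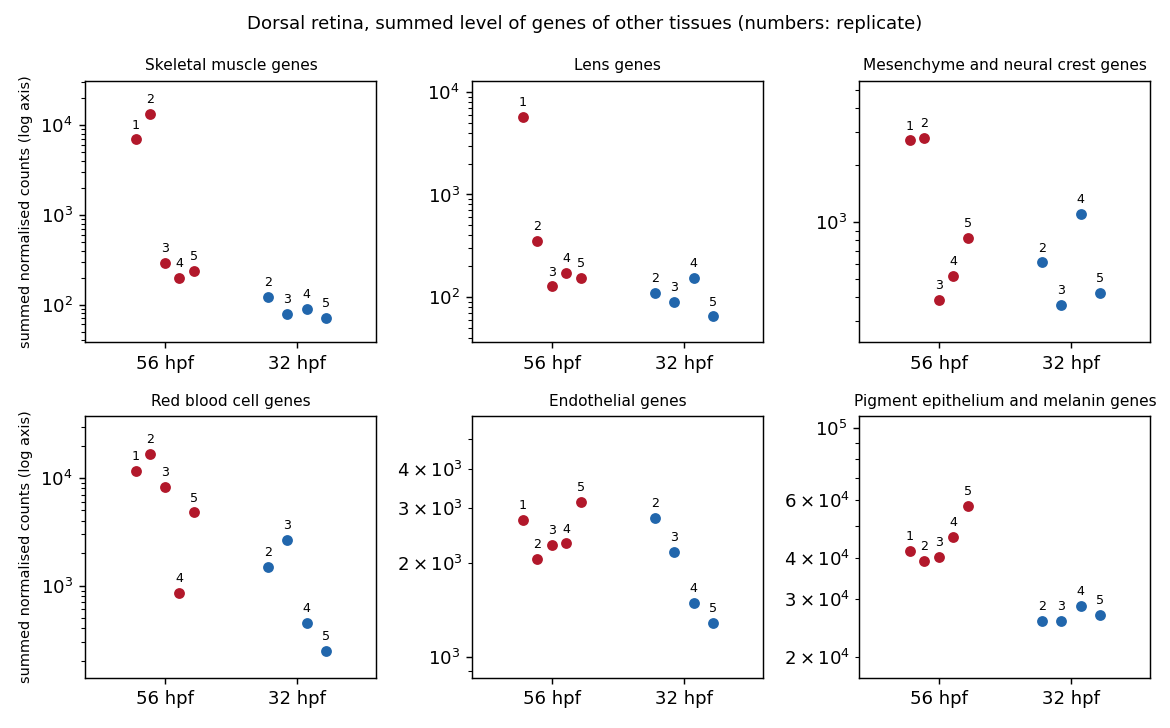
Summed normalised counts (log axis) of 6 gene lists of other tissues in each dorsal retina library at 56 hpf (left, n = 5) and 32 hpf (right, n = 4), labelled by replicate. Muscle genes reach 13244 in replicate 2 at 56 hpf and lens genes 5660.4 in replicate 1, while pigment genes run from 39195 to 57668 in the 56 hpf libraries.

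Of matrix genes kept 23.1% were called, against 36.1% of all genes kept. Of 39 collagen, laminin and basement membrane genes kept of 75, 7 were higher and 2 lower, and 2 and 2 without replicates 1 and 2 at 56 hpf. The higher count was 4 without replicate 1 at 56 hpf or replicate 5 at 32 hpf. After quantile scaling 3 were higher and 5 lower, and the median log2 fold change was -0.08, against 0.57 without that scaling. agrn (ENSDARG00000079388), the agrin gene of basement membranes, had 784, 725, 713, 708 and 908 normalised counts at 56 hpf, against 409.7, 398, 414 and 359.8 at 32 hpf (log2 fold change 0.95, SE 0.14, adjusted p = 1.8e-04), and lama1 (ENSDARG00000102277), a laminin chain gene, 122, 91.1, 136, 112 and 90.4 normalised counts at 56 hpf, against 222, 159, 295 and 269 at 32 hpf (log2 change -1.07, SE 0.25, adjusted p = 0.00406). col2a1a (ENSDARG00000069093), a fibrillar collagen gene, had 1441, 1946, 146, 342 and 253 normalised counts at 56 hpf, against 8.55, 73.7, 59.5 and 32.1 at 32 hpf (log2 change 3.89, SE 0.76, adjusted p = 0.00121), and col9a3 rose by 1.73, both highest in replicates 1 and 2 at 56 hpf. The call of col9a3 ended without these libraries. Of 20 stress and immediate early genes, 4 were higher and 2 lower (2 and 2 without replicates 1 and 2 at 56 hpf). These are 20% and 10%, no more than the 24.8% and 11.3% of all genes kept. junba (ENSDARG00000074378), an immediate early gene, had 823, 1009, 611, 422 and 334 normalised counts at 56 hpf, against 22.8, 12.3, 18.8 and 0.801 at 32 hpf (log2 change 5.84, SE 0.64, adjusted p = 1.3e-05). ccng1 (ENSDARG00000076667), a cyclin G gene, fell by 0.96 (a call that ended with DR replicate 1 at 32 hpf added), and casp3a (ENSDARG00000017905), a caspase gene, rose by 0.76.

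At 48 hpf, between the 2 times, several of these gene groups lay nearer to their 56 hpf than to their 32 hpf level. That time is itself nearer to 56 than to 32 hpf, so a change at a steady rate would also place them nearer to 56 hpf. How near they came differed between the lists, and a steady rate was not tested. DR replicate 5 at 48 hpf was left out here, because it held 768 normalised counts of the ventral gene vax1 where the other DR libraries of that time averaged 3.22 ± 2.63 (SD, n = 4). The median over a list of the mean log2(normalised count + 1) at 32, 48 and 56 hpf was 4.56, 9.07 and 9.36 for ganglion cell genes, 1.89, 7.78 and 7.96 for amacrine and horizontal cell genes and 1.26, 4.62 and 6.34 for phototransduction genes. It was 10.82, 9.53 and 9.37 for DNA replication genes, 9.66, 8.86 and 8.73 for Notch pathway genes and 6.59, 7.27 and 7.11 for clock genes. These medians are descriptions, and no test was made of them. At 32, 48 and 56 hpf isl2a averaged 2.31 ± 3.95, 526 ± 222 and 523 ± 65.9 normalised counts, pcna 48028 ± 5978, 19645 ± 6875 and 14861 ± 3157, and saga, the rod arrestin gene, 0.261 ± 0.522, 4.55 ± 6.69 and 51 ± 52.7 (SD, n = 4, 4 and 5). saga and pcna were chosen after their values were seen. saga was thus low at 48 hpf, but its SD exceeded its mean at 48 and 56 hpf, so its libraries differed widely. irbp was also lower at 48 than at 56 hpf, with averages of 0.238 ± 0.475, 26.6 ± 19.4 and 110.4 ± 40.3.

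**Figure D4:**
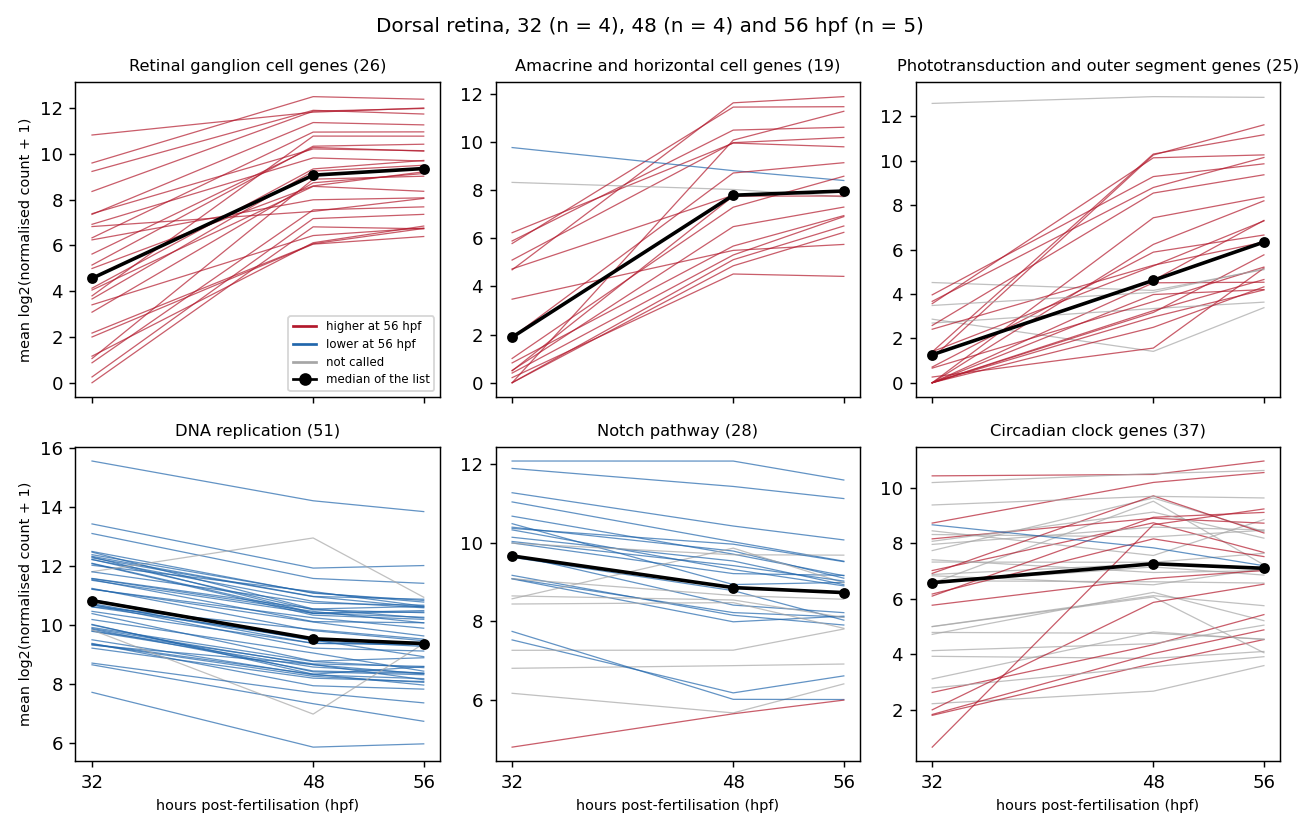
Mean log2(normalised count + 1) in the dorsal retina at 32, 48 and 56 hpf of each gene kept (thin lines, coloured by its call between 56 and 32 hpf) in 6 gene lists, with the list median in black. The median of ganglion cell genes stood at 4.56, 9.07 and 9.36, and that of phototransduction genes at 1.26, 4.62 and 6.34.

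Libraries of one time differed in the levels of these genes, and their order was not the same in every list. The 7 lists of ganglion, amacrine and horizontal, bipolar and photoreceptor cells, phototransduction, vesicle release and receptors held 147 genes that were higher at 56 hpf. Of the 56 hpf libraries replicate 1 was the highest in 75 of them and replicate 5 the lowest in 90. Replicate 1 held the fewest reads of its group (5904927) yet the most genes with reads (25740), and high muscle, lens and mesenchyme sums. The part of these traits in the order was not tested. In photoreceptor fate genes replicate 4 was the highest in 10 of 14, in phototransduction genes replicate 2 in 11 of 20, and in ganglion cell genes replicate 4 was the lowest in 12 of 26. For the 49 replication genes that were lower at 56 hpf, replicate 5 was the highest in 32 and replicate 1 the lowest in 23. Of the 32 hpf libraries replicate 3 was the highest in 76 of the neuronal genes and replicate 5 the lowest in 53. For ganglion cell genes alone, replicate 3 was the highest in 21 of 26, whereas replicate 2 was the highest in 10 of 20 phototransduction and 12 of 24 receptor genes. The genes of a library share its cells and depth, so these counts describe the libraries and carry no test. ptf1a, a gene of amacrine and horizontal precursors chosen after its values were seen, shows the spread at 32 hpf, with 716, 1084, 990.4, 741 and 962 normalised counts at 56 hpf, against 127, 624, 52.2 and 6.41 at 32 hpf (log2 fold change 3.57, SE 0.87, adjusted p = 0.00561). Replicate 3 at 32 hpf nearly reached the 56 hpf libraries, yet the groups did not overlap. The call of ptf1a ended with edgeR and with DESeq2.

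The change in the DR was set against that in the OF over the same times in a fit to 18 libraries, without the replicate 1 pair at 32 hpf. There, 5145 of 17031 genes were higher and 2405 lower at 56 hpf in the OF (30.2% and 14.1%), and 4375 and 1682 in the DR (25.7% and 9.88%). Without a block, the change differed between the regions in 2 genes (0.0117%), with 699 at an unadjusted p under 0.05. edgeR called 1 gene, which was neither of these 2 and had a negative OF minus DR change. Leaving out 1 library moved the limma count of 2. It was 15, 10 and 5 without DR replicates 1, 2 and 4 at 56 hpf, 4 without DR replicate 3 at 32 hpf, 6 without OF replicate 5 and 1 without OF replicate 3 at 32 hpf. Neither gene passed without DR replicate 2 or OF replicate 4 at 32 hpf or without OF replicate 1 or 2 at 56 hpf. OF and DR libraries of one number and time came as pairs. With the pair as a block the change differed in 49 genes (0.288%), 32 with a larger increase or smaller decrease in the OF and 17 the other way round. Without pairs 1 and 2 at 56 hpf it differed in 12. Photoreceptor genes were among those that rose more in the OF. The cone arrestin gene arr3b (ENSDARG00000098475) had 687 ± 291 normalised counts at 56 hpf and 1.68 ± 2.71 at 32 hpf in the OF, and 4.85 ± 9.74 and 2.18 ± 3.02 at these times in the DR (SD, n = 5 and 4 in each region, OF minus DR log2 change 8.37, SE 0.96, adjusted p = 0.00264, and 0.0177 without the block). rhol (ENSDARG00000070666), a gene named after rhodopsin, had 54.3 ± 16.6 normalised counts at 56 hpf and no read at 32 hpf in the OF, and 0.409 ± 0.915 and no read at these times in the DR (OF minus DR log2 change 5.42, SE 0.77, adjusted p = 0.00774, and 0.0177 without the block). Neither reached the filter within the DR, and reads of rhol and rho may be shared. rho had 17321 ± 9799 normalised counts at 56 hpf and 0.672 ± 0.461 at 32 hpf in the OF, and 153 ± 211 and no read at these times in the DR (OF minus DR log2 change 9.75, SE 1.47, adjusted p = 0.0115, and 7.5e-05 without pairs 1 and 2 at 56 hpf). opn1sw1 had 2589.5 ± 3008 normalised counts at 56 hpf and no read at 32 hpf in the OF, and 81.8 ± 116 and no read at these times in the DR (OF minus DR log2 change 7.54, SE 1.14, adjusted p = 0.0115, and 4.3e-04 without these pairs). arr3a, gnb3b, rom1a and rcvrn3, all of cones or rods, differed by 5.04, 6.43, 5.63 and 5.39, and kept their call without these pairs. The phototransduction genes gnat2, gngt1, guca1b, guca1g, opn1lw2 and pdca also rose more in the OF. They lost their call without these pairs (adjusted p between 0.0547 and 0.28). The phototransduction gene pde6g went the other way (OF minus DR log2 change -1.73, SE 0.33, adjusted p = 0.0444, and 0.31 without these pairs). Other than arr3b and rhol, the genes in this account were chosen after their values were seen, and none of them passed without the block. The dorsal T-box genes tbx3a and tbx2a rose more in the OF than in the DR (OF minus DR log2 change 3.15, SE 0.36, adjusted p = 0.00264, and OF minus DR log2 change 1.46, SE 0.26, adjusted p = 0.0325), from a lower level at 32 hpf there. tbx3a had 1047 ± 273 normalised counts at 56 hpf and 102 ± 85.8 at 32 hpf in the OF, and 990.5 ± 175 and 665 ± 145 at these times in the DR. Among genes with the larger increase in the DR were the matrix gene tnc, the photoreceptor gene samd7, the ganglion cell gene eomesa and the endothelial gene erg (OF minus DR log2 change -2.98, SE 0.52, adjusted p = 0.0312, OF minus DR log2 change -1.62, SE 0.27, adjusted p = 0.0231, OF minus DR log2 change -3.33, SE 0.63, adjusted p = 0.0423, and OF minus DR log2 change -4.35, SE 0.74, adjusted p = 0.0246). They began from a lower level in the DR, with means at 32 hpf of 11.6, 17.8, 3.08 and 0.2 normalised counts. In the OF these were 91.7, 82.1, 184 and 24.2. At 56 hpf the DR means were still below those of the OF (979, 925, 116 and 16.4, against 1224, 1205, 621 and 19.1). ntn1a had 373 ± 127 normalised counts at 56 hpf and 1128 ± 249 at 32 hpf in the OF, and 90.3 ± 90.1 and 24.4 ± 9.29 at these times in the DR (OF minus DR log2 change -2.95, SE 0.54, adjusted p = 0.0375). Their adjusted p was between 0.104 and 0.337 without pairs 1 and 2 at 56 hpf. Without these pairs tbx3a had an adjusted p of 0.0547 and tbx2a of 0.287.

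**Figure D5:**
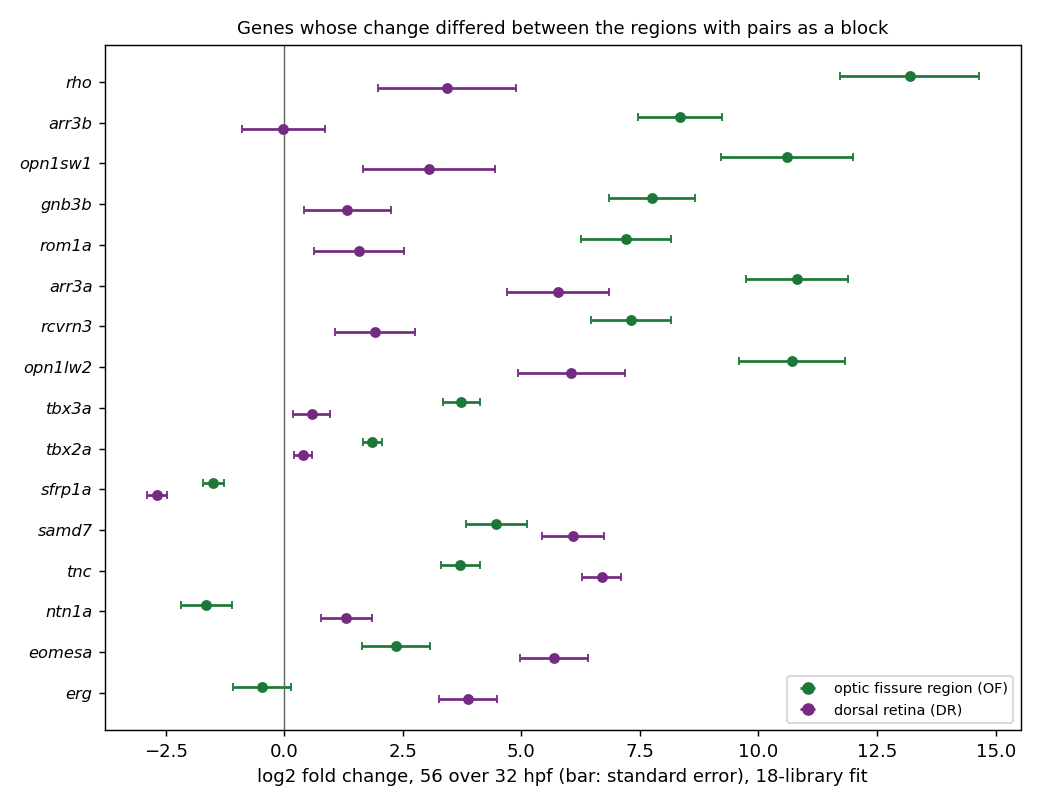
Log2 fold change, 56 over 32 hpf, with its standard error in the optic fissure region and in the dorsal retina for 16 genes whose change differed between the regions with pairs as a block. rho changed by 13.19 in the OF and 3.43 in the DR, and erg by -0.48 and 3.88.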

How the data were processed

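RNA of dissected retinal regions was extracted with a Qiagen RNeasy FFPE kit and made into SMARTer low-input libraries, per the labels' protocols. The deposited table holds 27731 genes by 30 libraries, each value a normalised read count (a signal) that the authors made by dividing counts by a size factor. Every value was a whole number of reads within 0.01 after multiplication by the library's factor, so reads were recovered for count tests. The submitters' processing notes name, with no roles, the build GRCz10, the aligner STAR 2.4.0, HTSeq, DESeq2, Trim Galore and Picard. Annotation release, strand setting and treatment of multiply mapped reads are not given in the sources used here, so overlapping, antisense and near-identical genes are uncertain. Gene names come from the deposited table, and a separate name table held 24464 of its IDs. Libraries were compared with limma 3.58.1 (R 4.3.3, trend, two-sided, Benjamini-Hochberg over the genes kept) on log2(normalised count + 1), unpaired. Alternatives were pseudocounts of 0.5 and 5, no filter or a mean of at least 50, TMM and quantile scaling, DR replicate 1 at 32 hpf added, all 30 libraries, a replicate block, array weights, robust variances, each library left out, edgeR 4.0.16 and DESeq2 1.42.0. The main limma fit, edgeR and DESeq2 were tested on simulated data, for the DR comparison between the times alone. The other alternatives and the comparison of the regions were not tested in that way. Few genes were changed in the simulation, as many up as down, so it cannot speak to the balance of higher and lower calls. Where a group had no read, a bound used 3 reads per library, and covers counting error only. p-values measure the spread between libraries. The series text calls replicates biological. OF and DR libraries of one number and time deviated together (r from 0.254 to 0.533 over 9 pairs), so they were treated as pairs when the regions were compared. Named genes were the 10 largest increases and decreases, over genes that have a symbol and averaged 50 or more where higher, the 4 members of each list with the smallest adjusted p, all dorsal and ventral eye genes, and up to 8 genes for the region difference. Further genes, among them those given with only a log2 value or only a name, were chosen after their values were seen. A few genes that the rule or a list includes are not reported here. Members and the 35 lists were chosen with earlier results of these data known, and the name patterns of the ribosomal protein, axon guidance and collagen lists were corrected after values were seen.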

Additional observations from a re-analysis of the deposited data

Results flagged for a closer look

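In 24 of 323 groups (1 gene at 1 time, where any library differed) the highest or lowest library of a group stood apart by Dixon's criterion. This is the gap to the next library over the range of its group, on log2(normalised count + 1). With normally distributed values chance alone gives it in about 1 of 20 groups, here 16.1. In 11 of the 24 the library held 1 to 11 reads where the rest of its group was at 0. There the ratio is at its maximum however few the reads, so that rate does not apply to these 11. At 32 hpf these were ckmt2a with 0.95, irbp with 0.95 and vax1 with 3.8 normalised counts in replicate 2, pou4f3 with 1.02, foxq2 with 3.07 and tpma with 11.3 in replicate 3, aldh1a3 with 1.04 in replicate 4, and neurod2 with 2.4 and erg with 0.801 in replicate 5. At 56 hpf they were smoc1 with 11.1 in replicate 1 and rhol with 2.05 in replicate 2. Among well detected genes at 56 hpf, replicate 5 was the lowest in meis2a with 717, in nfil3-6 with 32 and lay apart in bmp4 with 328, and was the highest in her4.2 with 929. Replicate 1 was the highest in mipa with 240.0, a lens gene, and that library also held 5660.4 normalised counts summed over lens genes. Replicate 3 was the highest in krt4 with 687, an epidermal keratin, and replicate 4 the lowest in alas2 with 6.96, a heme synthesis gene of red cells. At 32 hpf, replicate 3 was the lowest in bambia with 3454, gdf6a with 265 and fzd8a with 249.9, and replicate 2 in tbx5a with 101 and ntn1a with 10.5. smo was the lowest in replicate 5 with 752.

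The change over time differed between the regions for arr3b, by 8.37 on the log2 scale (OF minus DR), and for rhol, by 5.42 (adjusted p = 0.0177 and 0.0177 in limma without the pair block). edgeR called neither gene. arr3b lay between 0 and 22.2 normalised counts in the 56 hpf DR libraries.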

How the results depend on the processing

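The numbers higher and lower at 56 hpf stayed within 1.5 times of 3715 and 1702, apart from 2869 lower after quantile scaling and 771 lower with an absolute log2 fold change of at least 1 required. Leaving out each library gave 3267 to 3684 higher and 1308 to 1691 lower. Other scalings, filters, pseudocounts, edgeR (3152 and 2029) and DESeq2 (3567 and 2144) stayed within that limit, as did the fit without replicates 1 and 2 at 56 hpf, which was added after seeing the data. Libraries of one number did not deviate together between the times (r from -0.0358 to 0.0851), so the number is only a name there, and a replicate block over replicates 2 to 5 gave 3068 higher and 1203 lower, with 16 mitosis genes, 2 ribosomal protein genes and 4 neurogenic genes lower and 3 collagen, laminin and basement membrane genes higher. The families picked after the values were seen also lost calls under that block, with 3 splicing factor, 12 translation initiation factor and 7 nuclear pore genes lower. The count of genes whose change differed between OF and DR was 2 and depended on most settings: 49 with the pair as replicate block, 16 with a pseudocount of 5, 16 after quantile scaling, 12 with the replicate 1 pair at 32 hpf added and 1 with edgeR. The gene that edgeR called was neither of the 2. With a filter at a mean of 50, limma called 0, where 699 genes had an unadjusted p under 0.05 at the usual filter and edgeR called 1. Leaving out each of the 18 libraries gave 0 to 15. Without DR replicates 1 and 2 at 56 hpf it was 20, and 12 with the replicate block and both pairs left out. The cause was not tested. Of 146 called genes named by rule, 114 kept their call in every alternative that tested them, 32 lost it in at least 1 and none reversed. The filter at a mean of 50 dropped some of these genes, such as erg. A dropped gene was not counted as a lost call. The promoter motif counts were not run, since no promoter sequence was used here. Genes under 3 reads in a library cannot be told from absent at the depth of these libraries, 5904927 to 11345612 reads.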

Other observations

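The following gene families were picked by name pattern after the values were seen, so their counts describe them and nothing more. Most ion channel genes that were kept were higher at 56 hpf. Many were not kept, and a gene near 0 at 32 hpf could be kept only through its 56 hpf values. Of 22 calcium channel subunit genes kept of 47, 20 were higher (median log2 fold change 3.79, against 0.16 over all genes). Of 29 potassium channel subunit genes kept of 100, 18 were higher (median 3.18). These are 90.9% and 62.1% of the members kept, against 24.8% of all genes kept. Without replicates 1 and 2 at 56 hpf there were 18 and 16, and among genes averaging 50 or more there were 6 and 5. kcnv2a and kcnv2b, genes of a modifier subunit known from photoreceptors, averaged 104 ± 25.3 and 162 ± 59.7 normalised counts at 56 hpf, against 0.713 ± 1.43 and 1.24 ± 1.9 at 32 hpf (SD, n = 5 and 4, log2 fold changes 6.19 and 6.44, limma adjusted p = 3.6e-06 and 3.1e-06). Of 10 sodium-potassium pump subunit genes kept of 16, 5 were higher (median 0.94), and 4 higher and 1 lower without replicates 1 and 2 at 56 hpf. The 5 are 50% of the members kept, against 24.8% of all genes kept. atp1a3a, an alpha subunit gene, had 3099, 3584, 3300.2, 4038 and 2090.4 normalised counts at 56 hpf, against 59.9, 195, 68.9 and 4.81 at 32 hpf (log2 change 6.07, SE 0.71, adjusted p = 2.2e-05), and atp1b2b, a beta subunit gene, averaged 711 ± 217 at 56 hpf and 0.736 ± 0.919 at 32 hpf (log2 change 8.78, SE 0.44, adjusted p = 3.1e-08). Of 18 kinesin genes outside mitosis, motors of axonal transport, 14 were higher (13 without these libraries), led by kif1aa and kif1ab (5.27 and 5.11). The 14 are 77.8% of the members kept, against 24.8% of all genes kept. Of 40 protocadherin genes kept of 65, 35 were higher (34 without replicates 1 and 2 at 56 hpf, 19 among genes averaging 50 or more). Of 11 cadherin genes kept of 26, 8 were higher (5 without replicates 1 and 2 at 56 hpf). These are 87.5% and 72.7% of the members kept, against 24.8% of all genes kept. Clustered protocadherin copies can share reads. pcdh10a and cdh6 averaged 522 ± 84.9 and 541 ± 152 at 56 hpf, against 47.2 ± 21.8 and 58.1 ± 3.23 at 32 hpf (SD, n = 5 and 4, log2 fold changes 3.55 and 3.15).

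Of 62 translation initiation factor genes, 29 were lower and 3 higher (46.8% and 4.84%, against 11.3% and 24.8% of all genes kept). Their median log2 fold change was -0.46. The number lower was 20 without replicates 1 and 2 at 56 hpf and 19 without replicate 5 at 32 hpf. Of 22 nuclear pore genes 11 were lower (8 without replicates 1 and 2 at 56 hpf, 7 with DR replicate 1 at 32 hpf added). The 11 are 50% of the members kept, against 11.3% of all genes kept. Of 72 splicing factor genes 19 were lower and 1 higher (26.4% and 1.39%, against 11.3% and 24.8% of all genes kept). The splicing count was 16 without replicates 1 and 2 at 56 hpf, 12 after quantile scaling, 11 without replicate 1 at 56 hpf and 11 without replicate 5 at 32 hpf. The translation factor gene eif5a2 and the nuclear pore gene nup43 averaged 5720.4 ± 873 and 535 ± 50.7 at 56 hpf, against 15034 ± 1259 and 1227 ± 154 at 32 hpf (SD, n = 5 and 4, log2 fold changes -1.40 and -1.19). Of 38 proteasome subunit genes 2, psmd9 and psmd10, were lower (5.26%, against 11.3% of all genes kept). Their calls ended in 2 and 10 of 23 alternatives. Without replicates 1 and 2 at 56 hpf 1 was higher and 2 lower. Of 18 Sox genes kept of 26, 7 were higher and 3 lower (38.9% and 16.7%, against 24.8% and 11.3% of all genes kept). Without replicates 1 and 2 at 56 hpf the counts were 6 and 2. With all 9 libraries sox6, sox4a, sox12, sox5, sox13, sox4b and sox10 were higher, and sox9b, sox2 and sox19a, genes of neural progenitors, were lower. The calls of sox19a, sox10 and sox4b ended in 14, 9 and 3 of 23 alternatives. sox6 had 708, 586, 534, 418 and 418 normalised counts at 56 hpf, against 17.1, 34.8, 16.7 and 48.9 at 32 hpf (log2 change 4.25, SE 0.33, adjusted p = 9.1e-07), and sox2 1207, 1008, 1669, 1579 and 1600.0 normalised counts at 56 hpf, against 2433, 2071, 2782 and 2574 at 32 hpf (log2 change -0.82, SE 0.17, adjusted p = 0.00206). None of 44 Hox genes reached the filter.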
